A study of Mus musculus with 4 samples.

Results

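Cell cycle and mitosis genes were described in liver RNA-seq libraries of mice fed conjugated linoleic acid (CLA), given the PPARα antagonist GW6471, or given both. The genes were chosen by name: 46 symbols were looked up among the 15500 genes of the expression table, and all 46 were listed. By role they fell into 10 replication genes (Mcm2 to Mcm7, Pcna, Rrm1, Rrm2 and Tyms), 28 mitotic genes, 6 regulators of the passage from G1 into S phase, and 2 inhibitors of cyclin-dependent kinases (CDKs), Cdkn1a and Cdkn1b. The rule itself uses no measured value, though it was written with earlier results of these data known.

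A dividing cell licenses its origins in G1, when the MCM helicase is loaded onto DNA, copies the genome in S phase with nucleotides made by ribonucleotide reductase and thymidylate synthase, and then builds a spindle and separates its chromosomes in mitosis. Transcription follows the same order: E2F factors are known to drive replication genes around the entry into S phase, and the MuvB complex with B-MYB and FOXM1 is known to drive mitotic genes later, through a promoter word called the cell cycle homology region (CHR). Hepatocytes of an adult liver rest outside the cycle and can return to it, and p21, the product of Cdkn1a, holds CDKs inactive.

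The libraries came from male wild-type Kunming mice, bought at 5 weeks of age by the methods, and numbered 4, with 1 library for each condition. Vehicle was chow with 1.5% (w/w) linoleic acid, CLA was chow with 1.5% (w/w) of a CLA mixture holding the c9,t11 and t10,c12 isomers, GW6471 was the linoleic acid diet with a daily intraperitoneal injection of GW6471 at 20 mg/kg, and CLA+GW6471 was the CLA diet with that injection. Treatment lasted 28 days with 6 mice in a group by the labels, and the methods give zeitgeber time 8 for the livers of the diet groups. The libraries with GW6471 are described by the labels alone, and the sources used here do not say whether RNA was pooled over mice.

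Levels are FPKM, fragments scaled by transcript length and by the mapped fragments of the library, so they can be compared between genes. Ratios are log2 of FPKM + 0.1 in one library over another. With 1 library per condition there was no replicate error and no test, and every difference below is one between libraries. The 95% counting intervals printed beside values rest on a depth estimated at 18850000 to 19295000 reads per library and cover counting error only, not the spread between mice. At that depth a member had an estimated 149 to 19957 reads in a library, and the interval on a member's log2 ratio reached 0.11 to either side for the median member.

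The label of the tissue was set against marker genes before the results. Of 15 hepatocyte markers listed, 9 had a mean FPKM below 1, among them Cyp2e1 with 0.06, 0.06, 0.04 and 0.10 in Vehicle, CLA, GW6471 and CLA+GW6471, and Ttr, the gene of transthyretin, with 0.04, 0.04, 0.00 and 0.04. Alb, the gene of albumin, was at 679.53, 1321.55, 1067.32 and 620.17 FPKM in the same order. The other hepatocyte markers above 1 were Trf, the gene of transferrin, at 219.56 to 351.19, Fgb, a fibrinogen chain, at 35.68 to 138.03, the transcription factor Hnf4a at 47.23 to 54.53, Ass1 of the urea cycle at 16.64 to 25.92 and Apob at 2.28 to 3.93. The lists of other cell types were mixed. Of 6 stellate cell or fibroblast markers 5 had a mean below 1, Col1a1 and Col3a1 among them, while Dcn, a proteoglycan gene, ranged from 1148 to 1506 FPKM. Of 9 epithelial markers 3 had a mean below 1 (Krt19, Cdh1 and Krt14), while the keratin genes Krt18 and Krt8 ranged from 1171 to 1359 and from 403 to 491, the transcription factor Sox9 from 34.72 to 57.05 and Krt7 from 18.43 to 23.47. Of 5 macrophage markers 4 were below 1, with Cd68 at 23.43 to 35.64, and of 4 red cell markers 3 were below 1, with Hba-a1 at 1.80 to 2.02. All 4 lymphocyte and all 5 endothelial markers had a mean below 1. Several defining hepatocyte markers were thus near 0 in all 4 libraries of a tissue labelled liver, and fewer cells of a type cannot be told apart from less RNA per cell.

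The libraries also fell into pairs across the table. For 62.0% of the 10355 genes with a mean of at least 1 FPKM, CLA and GW6471 both lay on the same side of Vehicle and CLA+GW6471, so that Vehicle resembled the library with both treatments and CLA resembled GW6471. The labels were kept as given, and whether each library carries the right one was not tested. Every ratio between conditions below rests on them.

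The promoters of 6 members are shown because they hold the words by which replication and mitotic genes are usually told apart. They run from 180 bases before the transcription start to 24 bases from it onwards, were read from RefSeq on build GRCm38.p6, and all lie on the minus strand. Capitals mark 3 kinds of word on either strand. The CHR word was TTTGAA, which mitotic genes are known for. The CCAAT box is bound by NF-Y. An E2F word was any of TTTCCCGC, TTTCGCGC, TTTGCCGC and TTTGGCGC. The first 2 genes, Mcm7 (chr5:138171860-138172063) and Mcm6 (chr1:128359682-128359885), encode helicase subunits. The other 4 are Cdk1 (chr10:69352889-69353092), the mitotic kinase, Cdc20 (chr4:118437320-118437523), an activator of the anaphase-promoting complex, Ccnb2 (chr9:70421531-70421734), cyclin B2, and Top2a (chr11:99024166-99024369), topoisomerase II.
Mcm7: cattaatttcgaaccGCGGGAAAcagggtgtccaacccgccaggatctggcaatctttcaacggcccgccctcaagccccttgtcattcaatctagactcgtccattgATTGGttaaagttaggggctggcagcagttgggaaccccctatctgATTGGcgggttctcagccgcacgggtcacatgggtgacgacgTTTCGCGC
Mcm6: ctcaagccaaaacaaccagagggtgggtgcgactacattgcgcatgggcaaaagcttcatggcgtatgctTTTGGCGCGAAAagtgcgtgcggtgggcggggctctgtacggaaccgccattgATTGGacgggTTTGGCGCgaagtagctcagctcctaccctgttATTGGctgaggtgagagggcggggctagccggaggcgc
Cdk1: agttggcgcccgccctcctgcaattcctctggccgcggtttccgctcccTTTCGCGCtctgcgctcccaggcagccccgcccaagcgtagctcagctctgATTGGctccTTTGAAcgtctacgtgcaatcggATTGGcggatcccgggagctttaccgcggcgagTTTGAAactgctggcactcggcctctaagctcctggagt
Cdc20: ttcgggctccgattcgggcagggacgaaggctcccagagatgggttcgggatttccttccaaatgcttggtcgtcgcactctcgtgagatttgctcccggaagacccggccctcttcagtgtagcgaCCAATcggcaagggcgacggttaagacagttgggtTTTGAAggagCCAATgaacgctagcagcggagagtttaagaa
Ccnb2: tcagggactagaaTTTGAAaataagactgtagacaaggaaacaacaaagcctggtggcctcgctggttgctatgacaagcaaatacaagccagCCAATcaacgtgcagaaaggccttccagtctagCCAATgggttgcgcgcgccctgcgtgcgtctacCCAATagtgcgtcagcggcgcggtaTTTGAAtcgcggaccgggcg
Top2a: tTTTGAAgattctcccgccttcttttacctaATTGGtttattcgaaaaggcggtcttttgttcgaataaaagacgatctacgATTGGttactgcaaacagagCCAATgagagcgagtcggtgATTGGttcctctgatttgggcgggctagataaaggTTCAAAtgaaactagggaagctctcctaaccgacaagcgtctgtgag

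In these windows Mcm7 and Mcm6 held E2F words and no CHR word. Positions are those of a word's leading base on the shown strand, with the start base as 0. In Mcm6 an E2F word at -110 overlapped one on the opposite strand at -106, which made the longest run of capitals, and another lay at -47. Cdk1 held both kinds, an E2F word at -131 and CHR words at -71 and -15. Cdc20 held a CHR word at -18, Ccnb2 held CHR words at -167 and 4 with CCAAT at -87, -54 and -21 between them, and Top2a held CHR words at -179 and -23.

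Over the RefSeq window of 300 bases (250 before the start and 50 after), 38 of the 46 members had an entry. The members without one were Mcm4, Ccna2, Cdc25c, Aurkb, Kif20a, Smc4, Ccnd1 and Ccne2. CHR was found in 17 of 23 mitotic members (73.9%) and in 1 of 9 replication members (11.1%, Mcm2), beside 20.2% of all 27025 genes with an entry. E2F words were found in 4 of 9 replication members (44.4%), which were Mcm3, Mcm5, Mcm6 and Mcm7, in 1 of 23 mitotic members (4.35%, Cdk1) and in 2.6% of all genes. CCAAT was present in 88.9% of the replication members, 82.6% of the mitotic members and 41.1% of all genes. Among G1/S members the E2F words were in the windows of Cdk2 and Cdc25a, and neither CDK inhibitor held an E2F or CHR word. A match describes letters in a window and says nothing about a factor bound there.

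**Figure D1:**
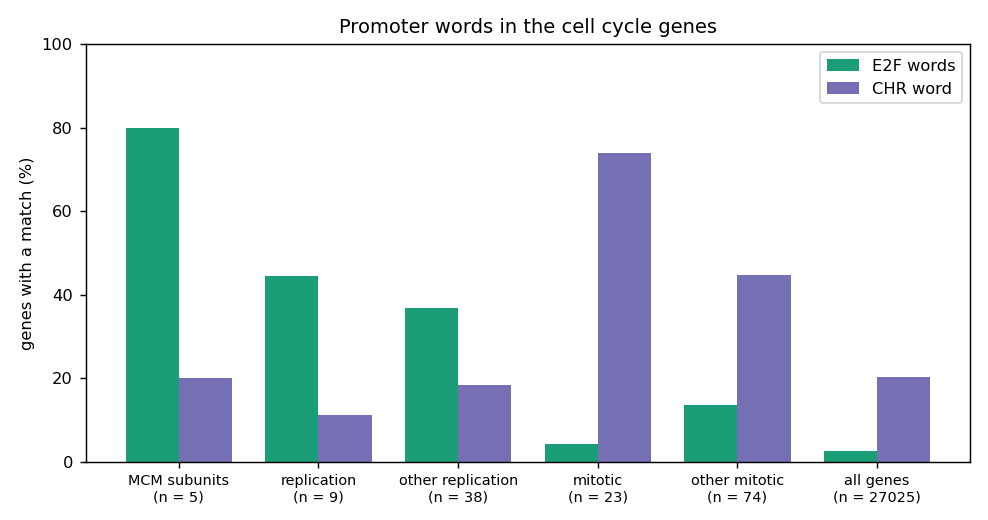
Share of genes (%, vertical axis) whose 300-base promoter window holds an E2F word (green bars) or the CHR word (violet bars), with the number of genes that have a window under each group. The CHR bar reaches 73.9% in the mitotic members and 11.1% in the replication members, and the E2F bar 4.35% and 44.4%, beside 20.2% and 2.6% of all genes.

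The same words were counted in the wider lists of cell cycle genes that stand beside the members below. Among 38 other replication genes with an entry, 36.8% held an E2F word and 18.4% the CHR word, and among 74 other mitotic genes the shares were 13.5% and 44.6%. CHR was thus rarer in the other mitotic genes than in the mitotic members, and E2F words were more frequent there.

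All 46 members were measured well above 0. Every one had a mean FPKM of at least 1, the limit used for counts of genes, and 42 lay above the median of all listed genes, 5.97 FPKM, with 23 above the upper quartile. The median of the members' mean FPKM was 22.6, beside 14.3 over the 10355 genes of at least 1 FPKM. By role the median was 30.9 for replication members, 22.0 for mitotic members and 16.2 for G1/S regulators. The most abundant members were Cdkn1a, with a mean of 293.4 FPKM, and Ccnd1, the gene of cyclin D1, with 233.5, and the least abundant was Ccne2, cyclin E2, with 3.43. Several defining hepatocyte markers were near 0 in the same libraries, and whether these are the levels of a resting liver was not tested.

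**Figure D2:**
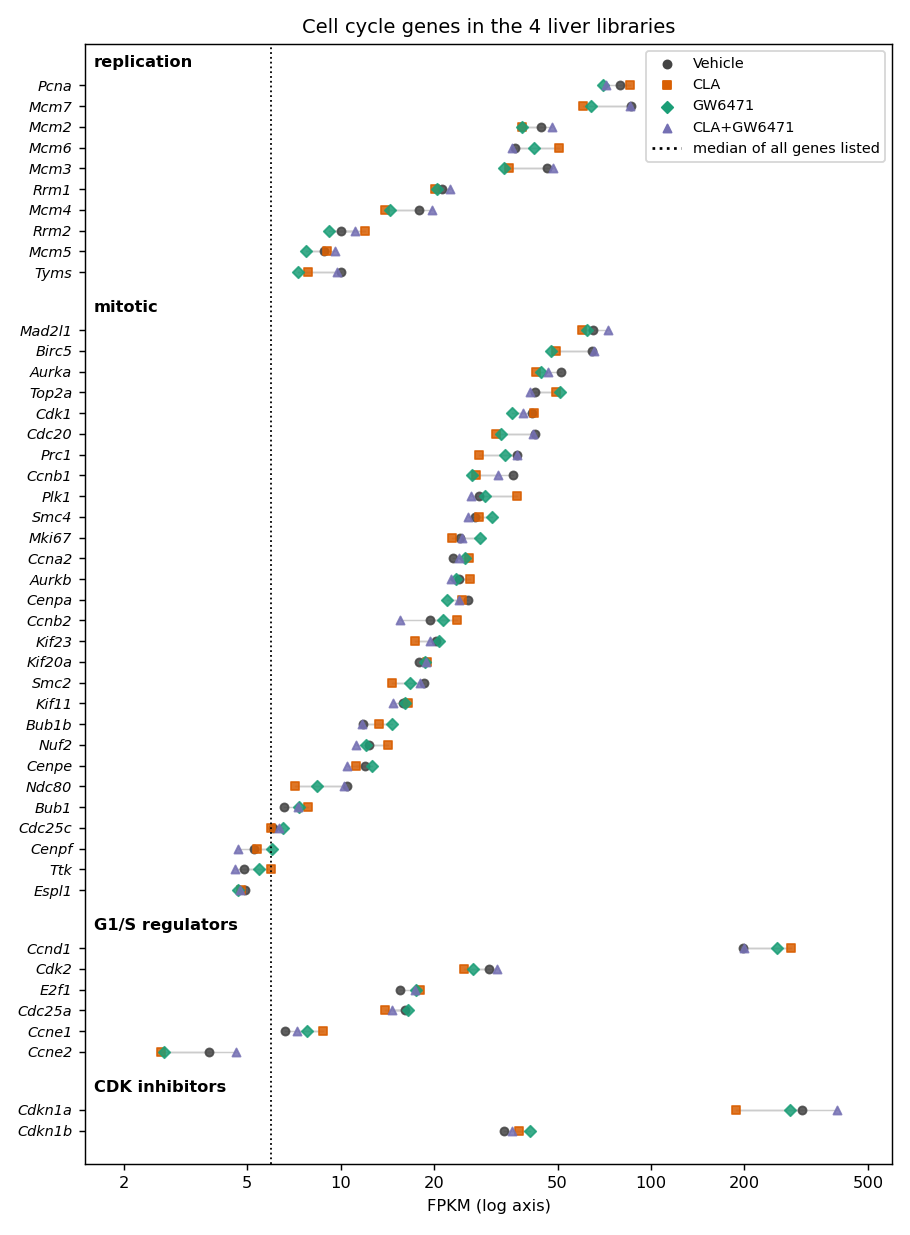
FPKM (horizontal log axis) of the 46 members in each library, 1 point per library (grey circle Vehicle, orange square CLA, green diamond GW6471, violet triangle CLA+GW6471), grouped by role and ordered by mean level, with the median of all listed genes, 5.97, as a dotted line. Most points of a row lie close together, Cdkn1a and Ccne2 are spread most widely, and 42 members lie above the dotted line by their mean.

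Levels varied little between the libraries. The highest library exceeded the lowest by a factor of 1.25 for the median member, beside 1.28 for all genes of at least 1 FPKM. The factor ran from 1.05 for Espl1, the gene of separase, which cuts cohesin at anaphase, to 2.11 for Cdkn1a. It was 1.5 or more in 3 members, Cdkn1a, Ccne2 (1.75) and Ccnb2 (1.53). The summed level of the 28 mitotic members was 698 FPKM in Vehicle, 661 with CLA, 664 with GW6471 and 680 with both, and that of the 10 replication members was 360.5, 332.7, 306.9 and 361.8 in the same order.

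Few members passed a ratio of 1.5 in any comparison. In CLA versus Vehicle, which asks what the CLA diet does, none was higher and 1 was lower, Cdkn1a, beside 7.3% of all genes higher and 4.95% lower. In GW6471 versus Vehicle, which asks what the antagonist does on the control diet, none was called, beside 3.28% higher and 2.1% lower. In CLA+GW6471 versus CLA, which asks what the antagonist does on the CLA diet, 2 members were higher (Cdkn1a and Ccne2) and 1 was lower (Ccnb2), beside 6.84% and 9.15% of all genes. In CLA+GW6471 versus GW6471, 1 member was higher (Ccne2) and none lower, beside 2.81% and 3.88%. With 46 members these counts are small, and the shares of all genes are given for scale.

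Smaller ratios lay outside counting error for most members, as they did for most genes. In CLA versus Vehicle the interval excluded a ratio of 1 for 34 members (73.9%) beside 65.6% of 9762 genes with a known length. The counts were 29 (63.0%) beside 55.0% in GW6471 versus Vehicle, 36 (78.3%) beside 68.8% in CLA+GW6471 versus CLA, and 33 (71.7%) beside 59.4% in CLA+GW6471 versus GW6471. Most genes of the table passed this limit too, and an interval for counting error says nothing about the spread between mice.

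The median replication member was lower in both libraries given a single treatment, with a log2 ratio of -0.14 in CLA versus Vehicle and -0.20 in GW6471 versus Vehicle. It was higher in CLA+GW6471, at 0.24 versus CLA and 0.32 versus GW6471. The number above 0 was 4 of 10 in CLA versus Vehicle, 1 of 10 in GW6471 versus Vehicle, 7 of 10 in CLA+GW6471 versus CLA and 9 of 10 in CLA+GW6471 versus GW6471. The median over all genes of at least 1 FPKM lay between -0.01 and 0.01 in each comparison. The comparisons share libraries, so the sign in one is not independent of the sign in the next.

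The medians of the mitotic members lay nearer to 0. Their log2 ratio was -0.003 in CLA versus Vehicle, 0.03 in GW6471 versus Vehicle, -0.06 in CLA+GW6471 versus CLA and -0.05 in CLA+GW6471 versus GW6471, with 14, 15, 11 and 12 of the 28 above 0. Replication minus mitotic medians came to -0.14, -0.22, 0.30 and 0.37 in the same order. No test of this difference was made, with 1 library per condition, and genes of a list are not replicates. As means over the lists, in place of medians, the differences were -0.07, -0.20, 0.16 and 0.30, each nearer to 0 than with medians.

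**Figure D3:**
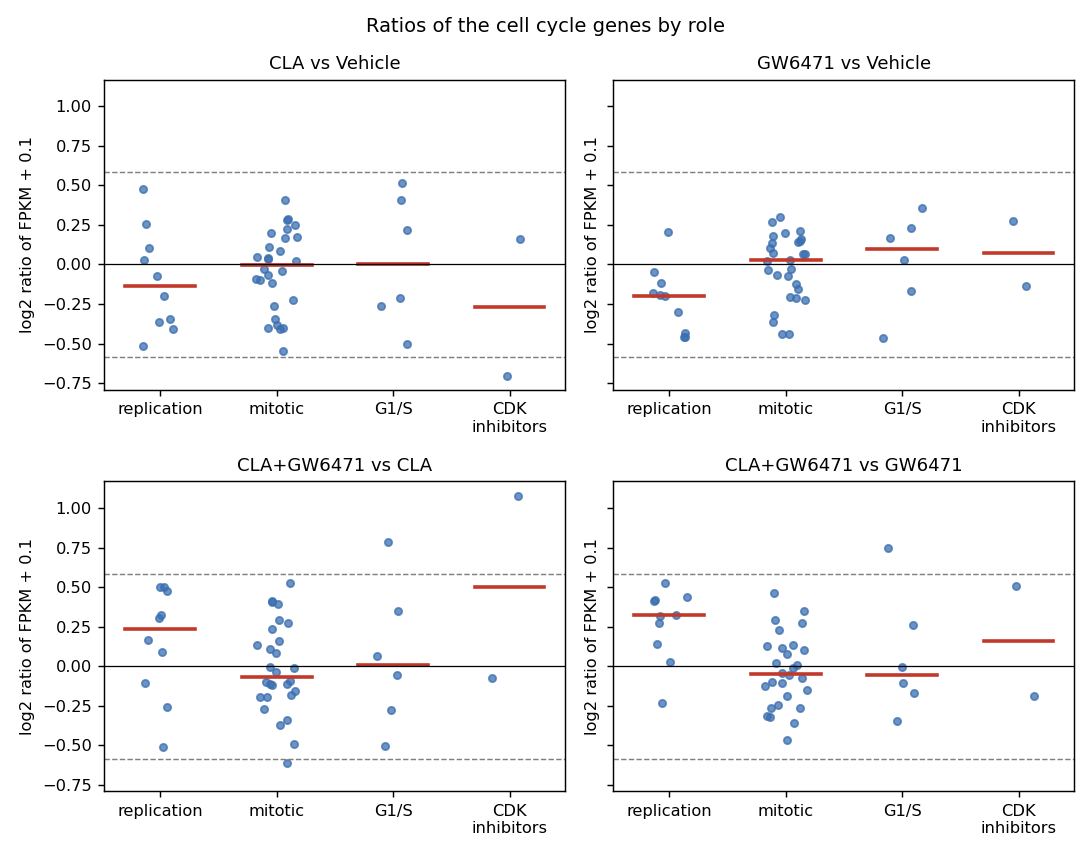
Log2 ratio of FPKM + 0.1 (vertical axis) for each member (points), by role, in the 4 comparisons, with the median of each role as a red bar, ratios of 1.5 in either direction as dashed lines and a horizontal jitter without meaning. The replication bar lies at -0.14 and -0.20 in the upper panels and at 0.24 and 0.32 in the lower ones, while the mitotic bar stays near 0.

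Within the replication members, the MCM medians lay further from 0 than those of the other 4 genes. For the 6 MCM subunits the median log2 ratio was -0.28 in CLA versus Vehicle, -0.25 in GW6471 versus Vehicle, 0.40 in CLA+GW6471 versus CLA and 0.37 in CLA+GW6471 versus GW6471. For Pcna, Rrm1, Rrm2 and Tyms the medians were 0.02, -0.15, 0.03 and 0.20.

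Mcm7 (Entrez 17220), a subunit of the helicase core, was at 86.44 FPKM in Vehicle (84.0 to 88.9), 60.44 with CLA (58.4 to 62.5), 63.87 with GW6471 (61.8 to 66.0) and 85.57 with both (83.2 to 88.0). The 2 libraries with a single treatment lay below the other 2, and the intervals of the pairs did not meet. Its log2 ratio was -0.52 in CLA versus Vehicle (-0.58 to -0.45) and 0.50 in CLA+GW6471 versus CLA. Mcm3, at 46.11, 34.78, 33.55 and 48.36 FPKM in the order Vehicle, CLA, GW6471 and CLA+GW6471, was also lowest in CLA and GW6471, with -0.41 in CLA versus Vehicle and -0.46 in GW6471 versus Vehicle.

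Mcm4 was at 17.82, 13.84, 14.45 and 19.62 FPKM and Mcm2 at 44.07, 38.33, 38.32 and 48.06, again lowest in CLA and GW6471. Mcm6 went the other way. It was at 36.34 FPKM in Vehicle, 50.68 with CLA, 41.90 with GW6471 and 35.59 with both, and its log2 ratio in CLA versus Vehicle was 0.48 (0.41 to 0.55). Mcm5, the least abundant subunit, was at 8.83, 9.01, 7.70 and 9.60, and its interval included 0 in CLA versus Vehicle. Subunits that work in 1 ring thus differed in direction between these libraries.

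Among the other replication members, Pcna, the sliding clamp of DNA polymerase and the most abundant of the role, was at 79.70 FPKM in Vehicle, 85.75 with CLA, 70.21 with GW6471 and 71.66 with both, so that both libraries with GW6471 were below those without it. Tyms, thymidylate synthase and the least abundant by mean, was at 10.02, 7.85, 7.28 and 9.71 in the same order, with -0.35 in CLA versus Vehicle (-0.51 to -0.20) and -0.46 in GW6471 versus Vehicle (-0.62 to -0.30). Rrm1, the large subunit of ribonucleotide reductase, stayed between 20.09 and 22.55, and Rrm2, the small subunit made in S phase, was highest in CLA, at 11.97, and lowest in GW6471, at 9.19. The genes of the nucleotide supply thus had no common order of libraries. Pcna, Tyms, Ccnb1 and Ccnb2 have named pseudogenes, whose reads may be split with theirs, and their values are uncertain in that respect.

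Counted gene by gene, the 2 libraries with a single treatment were both below the other 2 for 6 of 10 replication members (Mcm2, Mcm3, Mcm4, Mcm7, Rrm1 and Tyms) and both above for 1 (Mcm6). This grouping was chosen after the values were seen. It goes by the order of the libraries alone, and a gene can be counted within counting error. For Rrm1 the interval included 0 in CLA versus Vehicle (-0.178 to 0.027) and in GW6471 versus Vehicle (-0.149 to 0.054). Over all genes of at least 1 FPKM, 31.8% were lower and 30.2% higher in that sense, and over the 46 members 17 (37.0%) and 15 (32.6%), so the members as a whole were close to all genes. The paired libraries are therefore a feature of the whole table. The summed FPKM of the hepatocyte markers, which rests mostly on Alb, moved along the same grouping, with 1023 in Vehicle, 1892 with CLA, 1546 with GW6471 and 952 with both, and its part in the replication values was not tested. Of the 6 hepatocyte markers of at least 1 FPKM, 5 were higher in both single treatments and Hnf4a was lower, at 54.53, 47.31, 47.23 and 51.84 FPKM in that order. Some markers of other cell types moved along the grouping and others did not. Dcn was higher in both single treatments, at 1287, 1506, 1350 and 1148. Cd68 had the same order, at 23.43, 35.64, 24.87 and 24.37. Its interval included 0 in GW6471 versus Vehicle (-0.085 to 0.258) and in CLA+GW6471 versus GW6471 (-0.198 to 0.138). Sox9 was lower, at 54.74, 34.72, 48.67 and 57.05, as was Krt8 at 491.5, 442.6, 403.0 and 466.2. They were 2 of 6 epithelial markers of at least 1 FPKM (33.3%), and 0 of the 6 were higher. Krt18, Krt7, Epcam and Krt5 did not follow the grouping, and neither did Hba-a1 of the red cell markers. The summed level of the epithelial list did not follow the grouping, at 1939, 1819, 1652 and 1770, and the part of these markers in the replication values was not tested either.

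Mitotic members split in both directions under that grouping, with 8 (28.6%) lower in the single treatments and 10 (35.7%) higher. The shares of all genes were 31.8% and 30.2%, so the mitotic members were close to all genes. Some were counted within counting error, such as Bub1 in CLA+GW6471 versus GW6471 (-0.200 to 0.170) and Kif11 in GW6471 versus Vehicle (-0.086 to 0.125). Lower were Aurka, Birc5, Ccnb1, Cdc20, Mad2l1, Ndc80, Prc1 and Smc2. Higher were Bub1, Bub1b, Ccna2, Ccnb2, Cenpf, Kif11, Plk1, Smc4, Top2a and Ttk. By order the condensin partners Smc2 and Smc4 stood on different sides, as did the B-type cyclins Ccnb1 and Ccnb2. The interval included 0 for Smc4 in CLA versus Vehicle (-0.046 to 0.125) and for Ccnb2 in GW6471 versus Vehicle (-0.023 to 0.311).

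Mad2l1, a spindle checkpoint protein and the most abundant mitotic member, was at 65.20 FPKM in Vehicle, 60.03 with CLA, 62.07 with GW6471 and 72.62 with both, a log2 ratio of 0.27 for CLA+GW6471 versus CLA. Birc5, survivin of the chromosomal passenger complex, was at 64.48, 49.53, 47.56 and 65.57, and Cdc20 at 42.17, 31.73, 32.74 and 41.74 in the same order. In all these genes CLA and GW6471 were the 2 lowest libraries. Ndc80, the outer kinetochore protein that holds microtubules, had the lowest ratio of the role in CLA versus Vehicle, with 10.44 FPKM in Vehicle (9.48 to 11.5) and 7.10 with CLA (6.31 to 7.96), and was at 8.36 with GW6471 and 10.26 with both. Its log2 ratio in CLA versus Vehicle was -0.55 (-0.77 to -0.34). Nuf2, its partner in the same complex, was at 12.35, 14.21, 12.06 and 11.20, highest where Ndc80 was lowest.

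Ccnb2 was the single mitotic member past a ratio of 1.5. It was at 19.34 FPKM in Vehicle (17.8 to 21.0), 23.67 with CLA (21.9 to 25.5), 21.38 with GW6471 (19.7 to 23.1) and 15.47 with both (14.1 to 17.0), and CLA+GW6471 was below the other 3. The log2 ratio in CLA+GW6471 versus CLA was -0.61 (-0.79 to -0.44), and in CLA+GW6471 versus GW6471 it was -0.46 (-0.64 to -0.29). Ccnb1, the other B-type cyclin, was at 35.98, 27.26, 26.54 and 32.14 FPKM, lowest in the single treatments.

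Plk1, the polo-like kinase of mitotic entry and exit, was highest in CLA, at 36.92 FPKM, beside 27.86 in Vehicle, 29.13 in GW6471 and 26.22 in CLA+GW6471. Top2a, which untangles sister DNA, was at 42.17, 49.25, 50.92 and 40.71 FPKM in Vehicle, CLA, GW6471 and CLA+GW6471. Both were lowest in CLA+GW6471. Prc1, which bundles the spindle midzone, was lowest in CLA, at 27.90 beside 36.91 in Vehicle, 33.84 in GW6471 and 37.10 in CLA+GW6471.

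Mki67, the gene of the Ki-67 antigen, was at 24.28 FPKM in Vehicle, 22.80 with CLA, 28.10 with GW6471 and 24.61 with both, and its log2 ratio was -0.09 in CLA versus Vehicle (-0.15 to -0.03) and 0.21 in GW6471 versus Vehicle (0.15 to 0.27). Cdk1 was at 41.37, 41.96, 35.69 and 38.70 FPKM in the same order. Neither was ordered along the single treatments.

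The remaining mitotic members had log2 ratios between -0.37 and 0.30 in all 4 comparisons. Espl1, the least abundant of them, was at 4.91 FPKM in Vehicle, 4.76 with CLA, 4.68 with GW6471 and 4.75 with both, and each of its intervals included 0. Kif20a, a motor of cytokinesis, was as steady, at 17.89, 18.96, 18.75 and 18.84 FPKM. The kinetochore motor Cenpe lay between 10.45 and 12.58, Kif23 of the central spindle between 17.35 and 20.76, the centromeric histone Cenpa between 21.98 and 25.70, the kinase Aurkb between 22.69 and 26.02 and the phosphatase Cdc25c between 5.96 and 6.53. Of the checkpoint kinases, Bub1b lay between 11.68 and 14.59, Bub1 between 6.58 and 7.83 and Ttk between 4.57 and 5.95 FPKM. The kinase Aurka lay between 42.64 and 51.10, cyclin A2 (Ccna2) between 22.99 and 25.98, the condensin subunits Smc2 and Smc4 between 14.63 and 18.59 and between 25.64 and 30.79, the bipolar motor Kif11 between 14.75 and 16.45, and Cenpf of the kinetochore between 4.68 and 6.02.

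**Figure D4:**
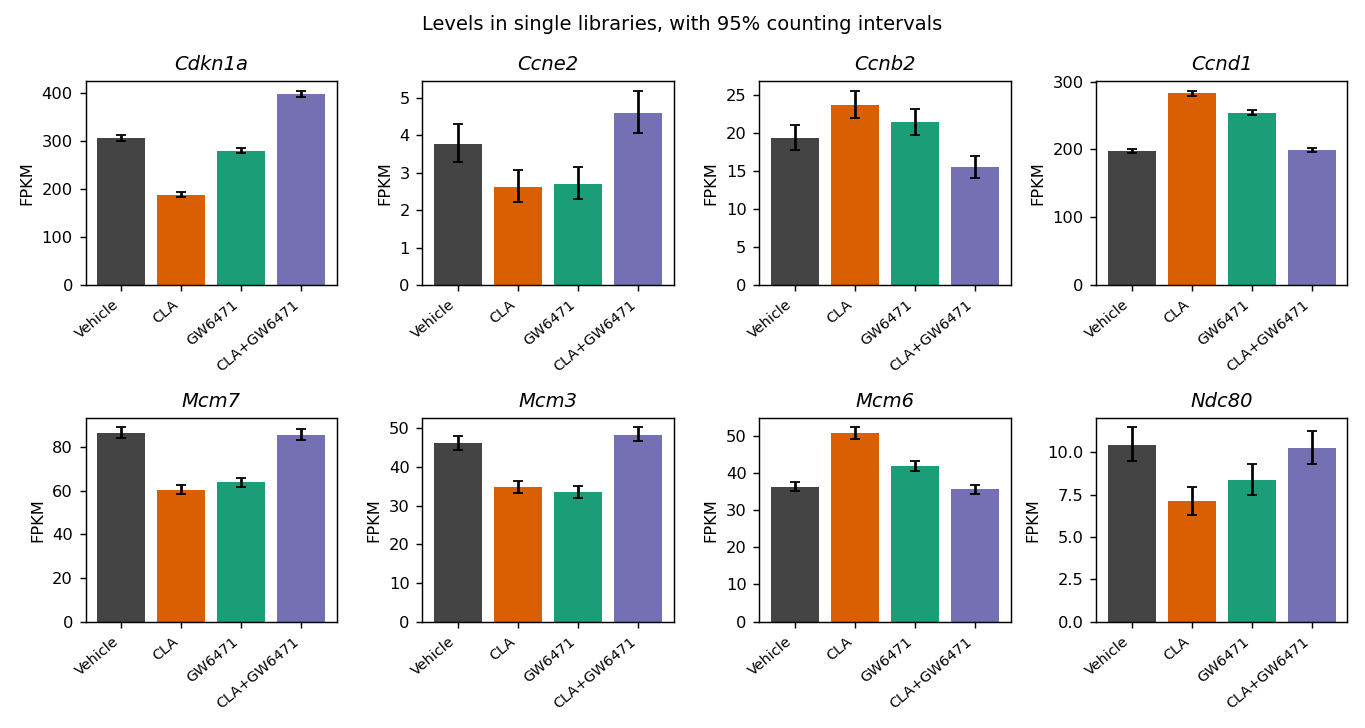
FPKM (vertical axes from 0) of 8 members in the 4 libraries, 1 bar per library, with whiskers for the 95% counting interval, which covers counting error only. Cdkn1a runs from 188.5 in CLA to 398.4 in CLA+GW6471; Mcm7, Mcm3, Ndc80 and Ccne2 are lowest in CLA and GW6471, Ccnd1 and Mcm6 are highest there, and Ccnb2 is lowest in CLA+GW6471.

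The regulators of S phase entry differed among themselves. Ccnd1, the cyclin that growth signals induce in G1 and the most abundant member of the role, was at 197.82 FPKM in Vehicle (194.6 to 201.1), 282.71 with CLA (278.8 to 286.7), 253.97 with GW6471 (250.3 to 257.7) and 199.45 with both (196.2 to 202.7). Both single treatments were above the other libraries, with log2 ratios of 0.52 in CLA versus Vehicle (0.48 to 0.55) and -0.50 in CLA+GW6471 versus CLA, short of the 1.5-fold limit in each comparison.

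Ccne2, the least abundant of all members, was at 3.77 FPKM in Vehicle (3.28 to 4.31), 2.63 with CLA (2.23 to 3.09), 2.70 with GW6471 (2.29 to 3.16) and 4.61 with both (4.07 to 5.20). It was lower in the single treatments, where Ccnd1 was higher. Its log2 ratio was 0.79 in CLA+GW6471 versus CLA (0.52 to 1.11) and 0.75 in CLA+GW6471 versus GW6471 (0.48 to 1.07), and -0.50 in CLA versus Vehicle (-0.84 to -0.22). Ccne1, cyclin E1, which also binds Cdk2, was at 6.61, 8.79, 7.77 and 7.22 FPKM, higher in the single treatments, where Ccne2 was lower. Cdk2 itself was at 29.97, 25.00, 26.65 and 31.91.

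E2f1, the activating E2F factor, was at 15.52 FPKM in Vehicle and 18.04, 17.46 and 17.39 in CLA, GW6471 and CLA+GW6471. Cdc25a, the phosphatase that activates Cdk2, was at 16.13, 13.93, 16.44 and 14.59, lower in both libraries of the CLA diet. In CLA versus Vehicle their log2 ratios were 0.22 and -0.21.

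Cdkn1a (Entrez 12575) had the widest range of all members. It was at 306.85 FPKM in Vehicle (301.2 to 312.6), 188.52 with CLA (184.1 to 193.1), 279.66 with GW6471 and 398.43 with both, lowest in CLA and highest in CLA+GW6471. The log2 ratio was -0.70 in CLA versus Vehicle (-0.75 to -0.66), -0.13 in GW6471 versus Vehicle (-0.17 to -0.10), 1.08 in CLA+GW6471 versus CLA (1.04 to 1.12) and 0.51 in CLA+GW6471 versus GW6471 (0.47 to 0.55). CLA was thus lower than the linoleic acid diet without GW6471 and higher than it with GW6471.

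Cdkn1b, the gene of p27, which inhibits the same kinases, was at 33.53 FPKM in Vehicle, 37.55 with CLA, 40.63 with GW6471 and 35.59 with both. It was higher in both single treatments, by log2 ratios of 0.16 in CLA versus Vehicle and 0.28 in GW6471 versus Vehicle, and the order of libraries was not that of Cdkn1a.

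Genes of the same pathways outside the members were read from lists written for this purpose. Among 46 other replication genes (origin recognition, GINS, polymerases, clamp loader, nucleotide enzymes), the numbers past a ratio of 1.5 were 0 higher and 3 lower in CLA versus Vehicle, 0 and 2 in GW6471 versus Vehicle, 4 and 1 in CLA+GW6471 versus CLA, and 3 and 0 in CLA+GW6471 versus GW6471. The shares of all genes, for this list and those after it, were 7.3% higher and 4.95% lower, 3.28% and 2.1%, 6.84% and 9.15%, and 2.81% and 3.88% in the same comparisons. Their median log2 ratios, -0.03, -0.11, 0.09 and 0.07 in that order, had the signs of the replication members at smaller size. Fen1, the flap endonuclease that trims Okazaki fragments, was at 26.86 FPKM in Vehicle, 14.40 with CLA, 14.49 with GW6471 and 26.34 with both.

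Mcm10, which activates the helicase, was at 7.05, 4.42, 5.45 and 8.68 FPKM in the order Vehicle, CLA, GW6471 and CLA+GW6471. Fen1 and Mcm10, like Mcm7, were thus lowest in CLA and GW6471. Tk1, thymidine kinase, was highest in CLA, at 16.22 beside 10.92 in Vehicle, and Gmnn, geminin, which blocks relicensing, was higher in CLA and GW6471 (19.62 and 18.99) than in Vehicle and CLA+GW6471 (13.65 and 13.93). In GW6471 versus Vehicle, Rpa2 of the single-strand binding protein had a log2 ratio of -0.46, and Orc3 of the origin recognition complex had 0.28. Both single treatments were below the other libraries for 21 of the 46 genes (45.7%) and above for 8 (17.4%), beside 31.8% and 30.2% of all genes.

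For 84 other mitotic genes of at least 1 FPKM the median log2 ratio was -0.01 in CLA versus Vehicle, -0.01 in GW6471 versus Vehicle, -0.03 in CLA+GW6471 versus CLA and -0.08 in CLA+GW6471 versus GW6471, and 24 (28.6%) were lower and 27 (32.1%) higher in both single treatments, beside 31.8% and 30.2% of all genes. The numbers past 1.5 were 0 higher and 1 lower, 0 and 1, 2 and 4, and 1 and 0. The centromere genes Cenpq (14.78 FPKM in Vehicle and 7.72 in CLA) and Cenpn (8.68 in Vehicle and 5.04 in GW6471) had the lowest ratios to Vehicle. Pttg1, the gene of securin, which restrains separase, was highest in CLA, at 324.57 FPKM beside 230.82 in Vehicle, 244.58 in GW6471 and 197.33 in CLA+GW6471. In CLA versus Vehicle Anapc2 had the next highest log2 ratio, 0.46, and in GW6471 versus Vehicle the cohesin genes Stag2 and Smc3 had 0.30 each and Cenpt -0.49. The difference between the other replication and other mitotic medians was -0.02, -0.09, 0.12 and 0.15, smaller than that of the members in each comparison.

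Factors that act on these promoters were also listed. Of 20 genes of the E2F, pocket protein, MuvB and FOXM1 group, 11 (55.0%) were lower and 2 higher in both single treatments, beside 31.8% and 30.2% of all genes. E2f4, a repressive E2F of resting cells, was at 85.32 FPKM in Vehicle, 62.77 with CLA, 69.00 with GW6471 and 95.06 with both. Rbl2, the gene of the pocket protein p130, was at 5.58, 8.18, 7.47 and 6.18 in the same order, higher in both single treatments, where E2f4 was lower. E2f3 and Tfdp1 had log2 ratios of -0.27 and -0.21 in CLA versus Vehicle, Tfdp2 had 0.48 there and Rb1 0.46 in GW6471 versus Vehicle. The numbers past 1.5 were 0 higher and 2 lower in CLA versus Vehicle, 0 and 0 in GW6471 versus Vehicle, 3 and 1 in CLA+GW6471 versus CLA, and 0 and 1 in CLA+GW6471 versus GW6471, beside 7.3% and 4.95%, 3.28% and 2.1%, 6.84% and 9.15%, and 2.81% and 3.88% of all genes.

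Of 17 other G1 cyclins, kinases and inhibitors of at least 1 FPKM, 1 was higher and 1 lower in CLA versus Vehicle, none in GW6471 versus Vehicle, 1 higher and 3 lower in CLA+GW6471 versus CLA, and none in CLA+GW6471 versus GW6471, at a ratio of 1.5. Myc, a driver of G1 progression, was at 386.83 FPKM in Vehicle, 203.56 with CLA, 279.68 with GW6471 and 408.62 with both. Its lowest and highest libraries were those of Cdkn1a. Cdkn2b, the gene of the CDK4 inhibitor p15, was at 62.52, 97.23, 77.12 and 59.65. Pkmyt1, an inhibitory kinase of Cdk1, had -0.45 in CLA versus Vehicle, Cdkn3 had 0.52 there and Ccnd3 0.33 in GW6471 versus Vehicle.

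Cdkn1a is a classic p53 target, and 24 further p53 targets were set beside it. Their median log2 ratio was -0.15 in CLA versus Vehicle, 0.07 in GW6471 versus Vehicle, 0.20 in CLA+GW6471 versus CLA and -0.03 in CLA+GW6471 versus GW6471. Aen, an apoptosis-associated nuclease gene, was at 54.80 FPKM in Vehicle, 29.23 with CLA, 39.07 with GW6471 and 57.85 with both, and Pmaip1, the gene of NOXA, had -0.56 in CLA versus Vehicle. Ddit4, an inhibitor of mTORC1, had the opposite order, at 46.91, 79.67, 75.60 and 44.79, and Perp had 0.54 in CLA versus Vehicle.

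In GW6471 versus Vehicle, Btg2 had a log2 ratio of 0.51 and Bax -0.31. At a ratio of 1.5 the p53 targets numbered 2 higher and 1 lower in CLA versus Vehicle, 2 and 0 in GW6471 versus Vehicle, 1 and 3 in CLA+GW6471 versus CLA, and 0 and 2 in CLA+GW6471 versus GW6471. Genes of this list thus lay on both sides of 0 in each comparison. Below 0 were 17 of 24 in CLA versus Vehicle, 9 in GW6471 versus Vehicle, 5 in CLA+GW6471 versus CLA and 14 in CLA+GW6471 versus GW6471, beside 5269, 5237, 5078 and 5106 of the 10355 genes of at least 1 FPKM. Most of the list lay on the side of Cdkn1a in CLA versus Vehicle and in CLA+GW6471 versus CLA, and on the other side in both remaining comparisons.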

How the data were processed

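RNA-seq of liver gave 1 library per condition, and the labels assigned the 4 libraries to Vehicle, CLA, GW6471 and CLA+GW6471. Per the methods, the authors mapped reads to mm9 with BWA and Bowtie and quantified them with Cufflinks, with no versions given in the sources used here. The authors deposited FPKM with 2 decimals for 15500 genes; the table names no unit, which was taken from the study's supplement. The sources used here do not state how genes were filtered, whether counting used strand, or whether mice were pooled. FPKM divides by length and by library, so a few abundant genes can shift all others.

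Ratios used a pseudocount of 0.1, and genes were counted from a mean FPKM of 1 and called from 1.5-fold. Depth was estimated from the spacing of low FPKM times length values of 603 genes under 1000 nt with a single transcript in GENCODE vM1, and the 95% intervals are exact (Poisson for levels, Clopper-Pearson for ratios), with the longest coding transcript as length. The spacing was read from 146 to 155 values per library, so the intervals are approximate. No count model was fitted and no test was made. Promoter windows came from RefSeq (GRCm38.p6), and no coordinate was moved between builds. Calculations used scipy 1.17.1, numpy 2.4.6 and pandas 2.3.3 under Python 3.11.15, figures used matplotlib 3.10.9, and the steps were tested on simulated data.

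Members, gene lists and rules were chosen with earlier results of these data known. By rule, full values were given for both CDK inhibitors, members past 1.5 in a comparison and the highest and lowest member of each role. Each list is named by its 2 largest rises and falls against Vehicle with a mean FPKM of at least 5, some by a ratio alone; other named members were chosen after their values were seen. Alternatives were a pseudocount of 0.01 or 1, a mean FPKM of 5 or no filter, a ratio of 2, libraries rescaled to equal sums or by the median ratio, and means in place of medians.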

Additional observations from a re-analysis of the deposited data

Results flagged for a closer look

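The ratio of the CLA diet over the linoleic acid diet had opposite signs with and without GW6471 in 36 of the 46 members (78.3%) and in 73.0% of all genes of at least 1 FPKM, so an opposite sign is the usual case in this table. The values are given here for the replication median and for the members past a ratio of 1.5 in any comparison. In each of those members both values also lay beyond counting error. No counting interval was made for the replication median, and its values were set against the 0.11 reach of the median member's interval. For the replication members the median log2 ratio was -0.14 without GW6471 (CLA against Vehicle) and 0.32 with it (CLA+GW6471 against GW6471), a difference of 0.46. As means in place of medians the 2 values were -0.10 and 0.26, and the value without GW6471 was then within that reach. For Cdkn1a the values were -0.70 and 0.51, a difference of 1.21. For Ccne2 they were -0.50 and 0.75, a difference of 1.25. For Ccnb2 they were 0.29 and -0.46, a difference of -0.75. These differences were not tested, since each condition has 1 library.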

How the results depend on the processing

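Of 144 values recomputed under alternatives for 22 results, 136 stayed within the limits used and 8 moved beyond them. The limits were 1.5 times for a count and 0.11 on the log2 scale for a median or difference, the reach of the members' median counting interval, and a change of sign was counted only for a value further from 0 than that. With a ratio of 2, the members called were 0 lower in CLA against Vehicle, 1 higher and 0 lower in CLA+GW6471 against CLA, and 0 higher in CLA+GW6471 against GW6471. With the filter set at a mean of 5 FPKM, which leaves out Ccne2, 1 member was higher in CLA+GW6471 against CLA and 0 in CLA+GW6471 against GW6471. A pseudocount of 1 left 0 members lower in CLA+GW6471 against CLA. With means in place of medians, the replication minus mitotic difference in CLA+GW6471 against CLA was 0.16 rather than 0.30, that in CLA against Vehicle was -0.07 rather than -0.14, and the replication value in CLA+GW6471 against CLA was 0.15 rather than 0.24, the last 2 within the log2 limit though changed by more than 1.5 times. The cause was not tested. The mitotic medians, all near 0, moved by more than 1.5 times within that limit. With libraries scaled to equal sums they were -0.12 in CLA+GW6471 against GW6471, 0.07 in GW6471 against Vehicle and -0.03 in CLA against Vehicle, and as means they were -0.04, -0.02, -0.01 and -0.03 in the order of the comparisons. With the filter at 5 FPKM that in CLA against Vehicle was 0.02, and with a pseudocount of 1 it was -0.001. The sign thus changed in CLA against Vehicle with the filter and in GW6471 against Vehicle as a mean. Members lower in both single treatments numbered 17, or 18 under either scaling of the libraries, a setting chosen after seeing the data, and members higher numbered 15, 18 and 15. No paired analysis was possible, because each condition has 1 library. All libraries carry replicate number 1, and the labels state no pairing of mice. No library could be left out without losing its condition. A fit of diet and GW6471 as additive terms, which would take their interaction as error, was not made. The depth gave log2 counting intervals that reached 0.11 to either side for the median member, and the spread between mice is unknown.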
